A study of Mus musculus with 10 samples.

Results

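The STEAP metalloreductase family was described here as the 5 rows of the deposited gene table named STEAP1, STEAP1B, STEAP2, STEAP3 and STEAP4, out of 58735 genes, in the 10 RNA-seq libraries analysed. The libraries came from subcutaneous tumours of LNCaP, an androgen-responsive human prostate cancer cell line, grown in immunodeficient mice of genotype NOD.Cg-Prkdcscid Il2rgtm1Wjl/SzJ, which lack T, B and NK cells of their own. In both groups the mice were injected intraperitoneally 4 times, a week apart, with sipuleucel-T (sip-T), a cellular immunotherapy made from blood leukocytes, at 5000000 cells in 100 µl of PBS each time, and the tumours were collected on day 7 after the last injection. In the IL-15 tumours (5 libraries) the mice were also given 1 µg of recombinant human interleukin-15 (rhIL-15) subcutaneously with each injection, and the study design speaks of sip-T treated with IL-15; in the control tumours (5 libraries) the sip-T was the control product and vehicle was injected in place of the cytokine. A treatment of the cells and an injection of the cytokine cannot be told apart in this design. The sample labels name the mouse as the organism, while the table lists human genes of build hg38, so the values describe reads counted on human genes and whether mouse reads entered them was not tested.

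STEAP proteins are membrane metalloreductases that move electrons from cytosolic NADPH through a flavin and a haem to ferric iron or cupric copper outside the cytosol, which lets divalent metal transporters carry the reduced ions. STEAP2, STEAP3 and STEAP4 have the cytosolic NADPH-binding reductase domain, whereas STEAP1 lacks it and depends on an outside electron source, and STEAP1 and STEAP2 are known for high expression in prostate epithelium and prostate cancer. STEAP3 is known from mouse red cell precursors as the ferrireductase of the transferrin cycle and is also tied to exosome secretion, STEAP4 as an inflammation-induced member studied mainly in fat cells and macrophages, and STEAP1B is a paralog of STEAP1 with no established enzyme activity.

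STEAP1 and STEAP2 were abundant in every tumour, STEAP3 was low and STEAP4 was the variable member, and none of the 4 genes that passed the count filter passed the test for a difference between IL-15 and control tumours. In the whole table, edgeR's quasi-likelihood test at an adjusted p under 0.05 called 0% of 16913 tested genes, so the 0 of 4 members called equals the background. At an unadjusted p under 0.05 by the same edgeR test, 6.46% of the tested genes and 0 of the 4 members passed. DESeq2 called 0.0415% of the genes to which it gave an adjusted p and no member. Its log2 fold change for STEAP4 was 2.64 ± 1.11 (SE), with an adjusted p of 0.557 by DESeq2. The CPM (counts scaled to 1000000 per library) of the groups did not overlap for 0.662% of tested genes and for 0 of the 5 members. Of the 4 tested members, 3 had a log2 fold change above 0, against 49.0% of all tested genes.

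Library totals lay between 13560224 and 19324056 counts, so that 3 counts, the floor used for a count of 0, corresponded to 0.155 to 0.221 CPM. All 10 markers of LNCaP luminal epithelium were detected in every library, and their summed level was 9181 to 14521 CPM in IL-15 tumours and 8174 to 11931 CPM in control tumours. Markers of T cells summed to 6.17 to 49.3 CPM in IL-15 tumours and 4.54 to 21.2 in control tumours, with up to 6 of the 16 markers at 0 in a library. Erythroid markers, of interest for STEAP3, summed to 0.159 to 0.749 CPM in IL-15 tumours and 0 to 0.643 in control tumours. In these bulk libraries fewer cells of a type and less RNA per cell cannot be told apart. No label says that the numbered libraries came from separate mice, and p-values therefore cover only the spread among the 10 libraries, which may be technical.

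Compared per length, in the deposited FPKM, STEAP1 had the highest level of the family. It lies at chr7:90154375-90164829 on the plus strand of hg38 (ENSG00000164647) as a protein-coding gene whose counted length in the table is 1625 bases. STEAP1 measured 161, 163, 136, 172 and 179 FPKM in IL-15 tumours 1 to 5, against 171, 124, 135, 176 and 198 FPKM in control tumours 1 to 5. The lowest and the highest library were both control tumours, and the range of the IL-15 tumours lay inside that of the control tumours. Its mean FPKM ranked 128 of 12934 tested protein-coding genes in IL-15 tumours and 142 in control tumours.

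In CPM, after scaling of the library sizes as in the test, STEAP1 measured 292, 291, 250.3, 309 and 317 in IL-15 tumours 1 to 5, against 310.1, 221, 237, 310.0 and 356 in control tumours 1 to 5. The log2 fold change was 0.026 ± 0.15 (SE), with a 95% interval of -0.30 to 0.35 and an adjusted p of 0.982 by edgeR's quasi-likelihood test. On the linear scale the interval spans 0.815-fold to 1.27-fold, so a larger shift of this luminal antigen in either direction lies outside it. The sign of the STEAP1 value was not fixed: it was negative without any one of IL-15 tumour 5, control tumour 2 or control tumour 3.

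STEAP2, the neighbouring ferric and cupric reductase, collected more reads than STEAP1 but over a longer model. It lies at chr7:90167590-90238137 on the plus strand (ENSG00000157214), protein-coding, with a counted length of 8715 bases. STEAP2 measured 72.1, 75.3, 77.4, 72.9 and 85.4 FPKM in IL-15 tumours 1 to 5, against 83.5, 58.6, 76.2, 103 and 56.3 FPKM in control tumours 1 to 5. In CPM it measured 700.0, 723, 765, 705 and 815 in IL-15 tumours, against 813, 561, 719, 978 and 543 in control tumours in the same order. All 5 IL-15 values again lay between the lowest and the highest control value, control tumour 5 being lowest and control tumour 4 highest.

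The log2 fold change of STEAP2 was 0.037 ± 0.17 (SE), with a 95% interval of -0.32 to 0.40 and an adjusted p of 0.976 by edgeR's test. The sign reversed without IL-15 tumour 5, control tumour 2 or control tumour 5. The STEAP2 standard deviation was 48.2 CPM around a mean of 741 in IL-15 tumours and 182 CPM around 723 in control tumours (n = 5 each). For STEAP1 it was 26.0 CPM around 292 in IL-15 tumours and 56.4 CPM around 287 in control tumours. The difference in spread between the groups was not tested.

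**Figure D1:**
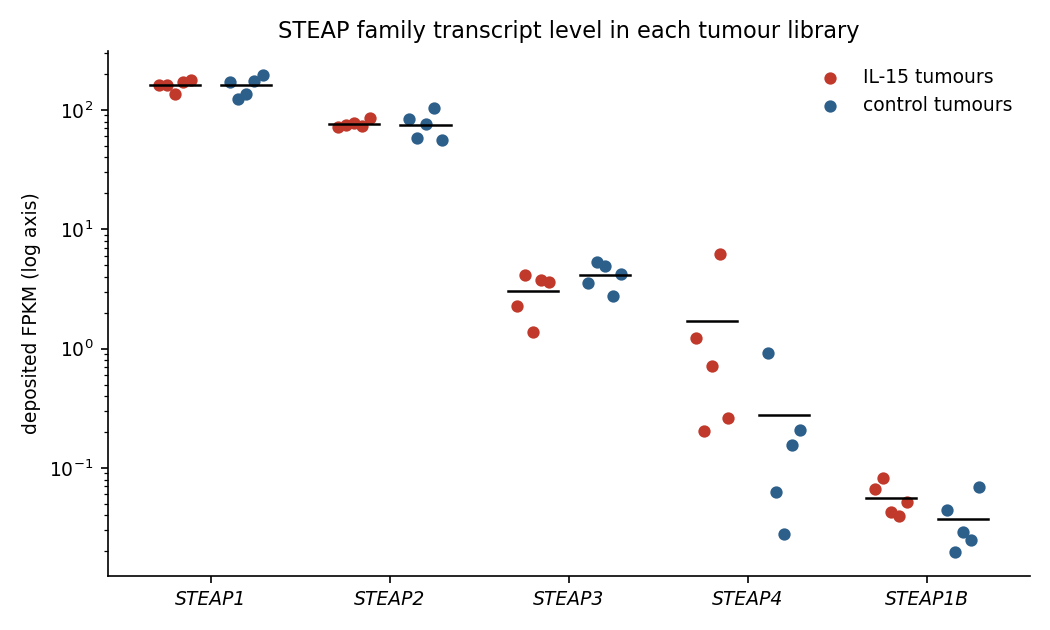
Deposited FPKM on a log axis for each STEAP gene, with 1 point per tumour library, IL-15 tumours left of control tumours in each pair, replicates 1 to 5 from left to right and a black line at each group mean. STEAP1 and STEAP2 sit at or above 56.3 FPKM in every library, STEAP3 between 1.38 and 5.30 FPKM, and STEAP4 spreads from 0.0281 FPKM in control tumour 3 to 6.16 FPKM in IL-15 tumour 4.

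STEAP3, the endosomal ferrireductase, was a low member, and its lower mean in IL-15 tumours did not pass the test. It lies on another chromosome, at chr2:119223831-119265652 on the plus strand (ENSG00000115107), protein-coding, with a counted length of 4562 bases. STEAP3 measured 11.5, 20.8, 7.11, 18.9 and 18.01 CPM in IL-15 tumours 1 to 5, against 18.2, 26.6, 24.6, 13.7 and 21.4 CPM in control tumours 1 to 5. IL-15 tumours 3 and 1 held the lowest values and control tumours 2 and 3 the highest, while the other 6 libraries overlapped.

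The mean STEAP3 level was 15.3 ± 5.76 CPM in IL-15 tumours and 20.9 ± 5.13 CPM in control tumours (SD, n = 5 each). The log2 fold change was -0.45 ± 0.28 (SE), with a 95% interval of -1.04 to 0.15 and an adjusted p of 0.785 by edgeR's test. It stayed below 0 whichever library was left out, and was -0.26 without IL-15 tumour 3, its value nearest 0. In FPKM the level was 3.03 ± 1.16 in IL-15 tumours and 4.16 ± 1.03 in control tumours.

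STEAP4, the member known for its induction by inflammatory signals, varied far more between libraries than the others, and its higher mean in IL-15 tumours did not pass the test. It lies at chr7:88270892-88306891 on the minus strand (ENSG00000127954), protein-coding, with a counted length of 11245 bases. STEAP4 measured 15.3, 2.55, 9.17, 76.8 and 3.23 CPM in IL-15 tumours 1 to 5, against 11.7, 0.777, 0.342, 1.92 and 2.57 CPM in control tumours 1 to 5. The raw counts behind these values were 222, 48, 147, 1072 and 44 in IL-15 tumours, against 182, 11, 5, 33 and 36 in control tumours. IL-15 tumour 4 stood alone at the top, and control tumour 1 was above IL-15 tumours 2, 3 and 5, so the groups overlapped.

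Across libraries the highest STEAP4 CPM was 225-fold the lowest, against 1.62-fold for STEAP1, 1.80-fold for STEAP2 and 3.73-fold for STEAP3. The within-group standard deviation of log2 CPM was 1.85 for STEAP4, which ranked 62 of 12558 tested protein-coding genes with a mean of at least 1 CPM. The same spread was 0.53 for STEAP3, 0.26 for STEAP2 and 0.23 for STEAP1. These place STEAP4 at percentile 99.5 of the gene-wise spread, STEAP3 at 81.6, STEAP2 at 38.6 and STEAP1 at 26.8.

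The STEAP4 group means were 21.4 ± 31.4 CPM in IL-15 tumours and 3.45 ± 4.67 CPM in control tumours (SD, n = 5 each). The log2 fold change was 2.62 ± 1.197 (SE), or 6.16-fold with a 95% interval of 0.945-fold to 40.1-fold, at an unadjusted p of 0.0559 and an adjusted p of 0.772 by edgeR's quasi-likelihood test. Single libraries set its size: the log2 value was 1.12 without IL-15 tumour 4 and 3.92 without control tumour 1. On the log2(FPKM + 1) scale, which compresses low genes, limma gave 0.76, and on log2(FPKM + 0.1) it gave 1.76.

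**Figure D2:**
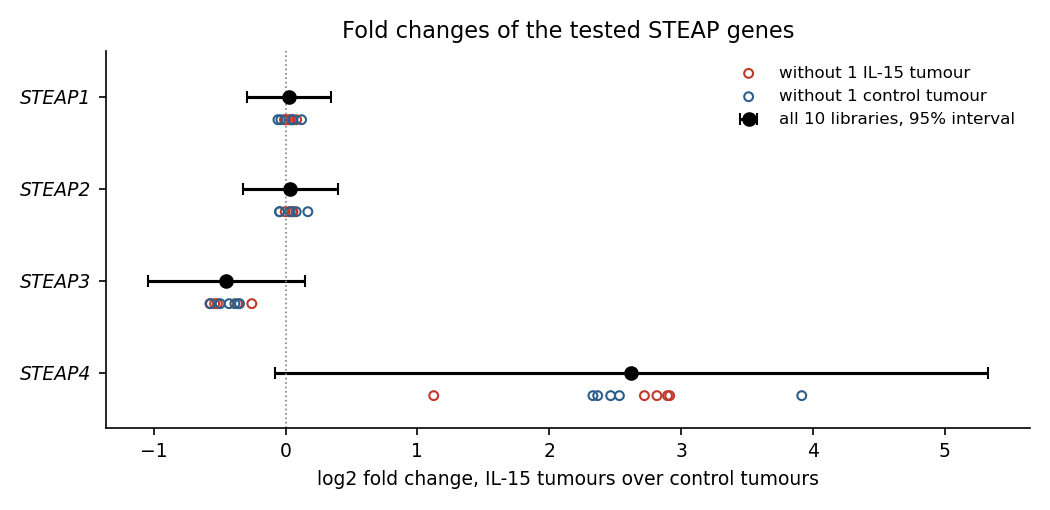
Log2 fold change of IL-15 over control tumours for the 4 tested STEAP genes, with the black point and bar for all 10 libraries and its 95% interval, and open circles for the value with 1 IL-15 or 1 control tumour left out. All 4 intervals include 0, and the STEAP4 circles run from 1.12 to 3.92.

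STEAP1B was close to the detection limit and fell under the count filter of the main test. It lies at chr7:22419444-22727613 on the minus strand (ENSG00000105889), protein-coding, with a counted length of 6478 bases. STEAP1B had 7, 11, 5, 4 and 5 counts in IL-15 tumours 1 to 5, against 5, 2, 3, 3 and 7 counts in control tumours 1 to 5. The groups overlapped, and the summed counts of 32 in IL-15 tumours and 20 in control tumours gave a depth-adjusted ratio of 1.57, with a 95% interval of 0.872 to 2.90 that covers counting error only. With no low-count filter the log2 fold change was 0.61 ± 0.64 (SE), with an adjusted p of 0.769 by edgeR's test. STEAP1B counts were at most 0.201% of the STEAP1 counts in the same library, and whether reads of STEAP1 were assigned to its paralog was not tested.

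By FPKM the order STEAP1, STEAP2, STEAP3, STEAP4, STEAP1B held in full in 8 of 10 libraries. STEAP1 exceeded STEAP2, and STEAP2 exceeded STEAP3, in 10 of 10. STEAP3 exceeded STEAP4 in 9 of 10, the exception being IL-15 tumour 4, and STEAP4 exceeded STEAP1B in 9 of 10, the exception being control tumour 3. STEAP3 and STEAP4 in IL-15 tumours, at 3.03 ± 1.16 and 1.71 ± 2.52 FPKM, had overlapping spreads. So did STEAP4 and STEAP1B in control tumours, at 0.277 ± 0.371 and 0.0376 ± 0.0202 FPKM. The members were measured in the same libraries, and their differences within libraries were not tested.

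The summed FPKM of the family was 243 ± 19.7 in IL-15 tumours and 241 ± 38.0 in control tumours (SD, n = 5 each). STEAP1 made up 66.5 ± 1.97% of that sum in IL-15 tumours and 66.6 ± 5.81% in control tumours. STEAP2 made up 31.6 ± 2.71% in IL-15 tumours and 31.4 ± 5.84% in control tumours. The remaining members took little: STEAP3 had a mean share of 1.22% in IL-15 tumours and 1.82% in control tumours, and STEAP4 one of 0.690% in IL-15 tumours and 0.108% in control tumours.

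The ratio of STEAP1 to STEAP2 FPKM was 2.12 ± 0.23 in IL-15 tumours and 2.23 ± 0.74 in control tumours. Control tumour 5 had the highest ratio, 3.52, with the highest STEAP1 and the lowest STEAP2 level of all libraries. The ratio rests on the counted length of each gene, and transcript isoforms were not measured.

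STEAP1 and STEAP2 are adjacent, on the same strand and 2.76 kb apart, and STEAP4 lies 1847 kb before STEAP1 on the other strand. Their levels did not move together detectably over the 10 libraries. Pearson's r of log2 CPM for STEAP1 and STEAP2 was 0.17 (permutation p = 0.634) and Spearman's rho was 0.22 (permutation p = 0.537), with r = -0.35 after leaving out the 2 libraries farthest from the STEAP1 median. Within IL-15 tumours r was 0.0088 and within control tumours 0.18, with no test at 5 libraries each. Of the 6 pairs of tested members none passed a permutation test with Benjamini-Hochberg adjustment, the lowest adjusted p being 0.430 for r and 0.344 for rho.

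STEAP3 had negative coefficients with STEAP4 (r = -0.45, rho = -0.58) and with STEAP2 (r = -0.44, rho = -0.54), and both permutation tests gave an adjusted p of 0.430 for r and 0.344 for rho. STEAP1 and STEAP4 had r = 0.43 and rho = 0.39, STEAP1 and STEAP3 r = -0.040 and rho = -0.25, and STEAP2 and STEAP4 r = 0.14 and rho = -0.0061. For STEAP1 and STEAP3, r was 0.81 after leaving out the 2 libraries farthest from the STEAP1 median (permutation p = 0.0163, not adjusted), 0.85 within IL-15 tumours and -0.63 within control tumours, so the pooled value rests on which libraries enter. With control tumour 2 left out, r turned to -0.21 for STEAP1 and STEAP2, 0.29 for STEAP1 and STEAP3 and -0.060 for STEAP2 and STEAP4, and without control tumour 3 it was 0.13 for STEAP1 and STEAP3.

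The genes around the chromosome 7 members showed no called difference either. Of 47 listed genes within 1 Mb of STEAP1, STEAP2 or STEAP4, 10 tested protein-coding genes were not members, and 8 of them had a log2 fold change above 0 and 2 below. CFAP69, a cilia and flagella protein gene that follows STEAP2, had the largest of these, at 42.7 ± 30.3 CPM in IL-15 tumours and 23.2 ± 13.1 CPM in control tumours (log2 fold change 0.88 ± 0.51, adjusted p = 0.779 by edgeR's test). Over the libraries, STEAP4 had r = 0.67 with CFAP69 and 0.76 with FAM237B, STEAP2 had r = 0.74 with CDK14, and STEAP1 had r = 0.48 with SRI, its highest among these 10 genes, all given as descriptions over libraries that share the group contrast.

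**Figure D3:**
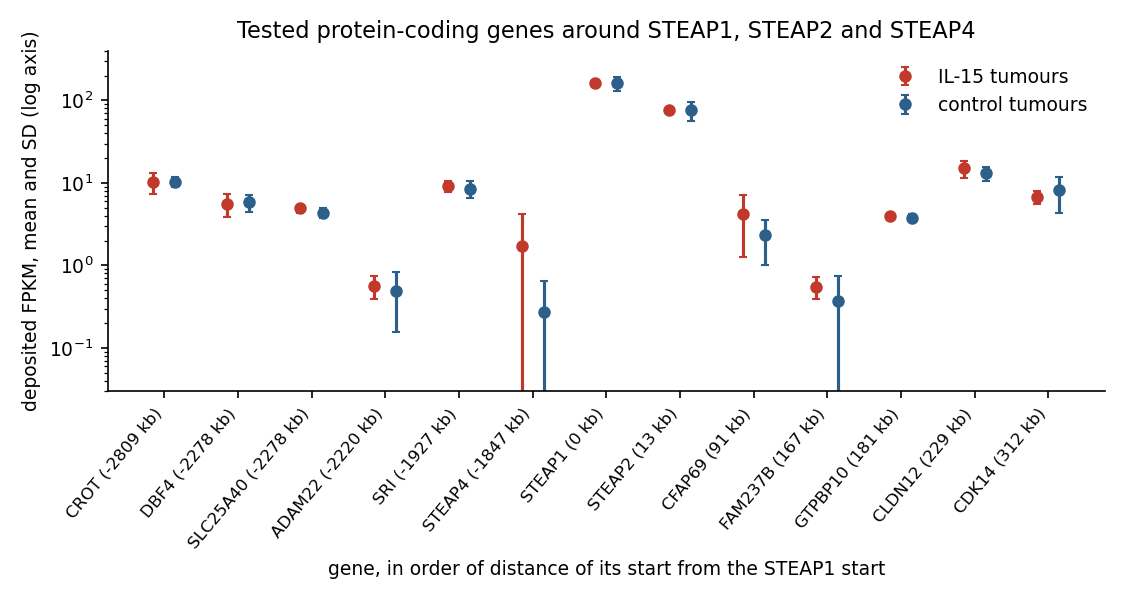
Mean deposited FPKM with SD on a log axis for the tested protein-coding genes within 1 Mb of STEAP1, STEAP2 or STEAP4, ordered by the distance of each gene's start from the STEAP1 start in kb, with IL-15 tumours left of control tumours. STEAP1 (162 and 161 FPKM in IL-15 and control tumours) and STEAP2 (76.6 and 75.6 FPKM) stand above all the others, and bars that would pass below 0 are drawn to the foot of the axis.

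The antisense genes of STEAP2, STEAP3 and STEAP4 had few counts, whereas a pseudogene inside the span of STEAP1B had many more counts than STEAP1B itself. STEAP2-AS1, whose span crosses both STEAP1 and STEAP2 on the opposite strand, had 14 to 40 counts per library, at most 0.421% of the STEAP2 count. STEAP3-AS1 had 0 to 3 counts, at most 2.63% of the STEAP3 count, and the antisense gene AC003991.1 over STEAP4 had 21 counts in all IL-15 tumours and 14 in all control tumours. EEF1A1P6, the processed pseudogene within STEAP1B on the same strand, had 2536 counts in all IL-15 tumours and 2751 in all control tumours. The strand setting of the counting is not stated, so reads of a member and its antisense partner cannot be told apart.

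Each member had its own nearest patterns among the other protein-coding genes, compared by Pearson's r of log2 CPM over the 10 libraries. For STEAP1 the closest 5 were EBF4 (r = 0.90), PHKA1, SUMF2, UBXN8 and FOXD4, and only 1 of 12549 genes exceeded r = 0.9. For STEAP2 they were PCDHGB3 (r = 0.91), APBA1, EPB41L1, SPG11 and OPRK1, with 3 genes over 0.9. STEAP3 had more close genes, 58 over 0.9, led by SLC25A33 (r = 0.99) and MPV17 (r = 0.97), which encode mitochondrial inner membrane proteins, followed by CDK16, PLEKHA4 and BOK. Of these, PLEKHA4 was near the floor, with means of 0.692 CPM in IL-15 tumours and 1.35 CPM in control tumours. It met the mean of at least 1 CPM asked of the compared genes only through the control tumours. OPRK1, listed for STEAP2, was near the floor in some libraries, at 0 CPM in control tumour 5 and 0.0706 CPM in control tumour 2. Its highest values were 7.65 CPM in IL-15 tumour 5 and 5.23 CPM in control tumour 4.

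STEAP4 had 13 genes over 0.9, led by HLA-DMB (r = 0.97), a chaperone chain of MHC class II peptide loading, and ORM2 (r = 0.95), an acute-phase plasma protein gene, followed by HSD17B1, ADPGK and WIPI1. HLA-DMB measured 1.10, 0.266, 1.06, 7.67 and 0.882 CPM in IL-15 tumours 1 to 5, against 1.22, 0.0706, 0, 0.174 and 0.143 CPM in control tumours 1 to 5. ORM2 measured 1.17, 0.159, 1.12, 11.1 and 0.882 CPM in IL-15 tumours, against 2.37, 0.141, 0.0684, 0.465 and 0.429 CPM in control tumours in the same order. IL-15 tumour 4 was highest and control tumour 3 lowest for both, as for STEAP4, and control tumour 1 was the next after the highest for both, where STEAP4 had IL-15 tumour 1. These genes were picked for their likeness, so the coefficients are descriptions with no test, and several HLA-DMB and ORM2 values rest on a handful of counts. Genes compared here had a mean of at least 1 CPM over all libraries. HLA-DMB and ORM2 met this only through IL-15 tumour 4, at 7.67 and 11.1 CPM. Their means were 2.20 and 2.89 CPM in IL-15 tumours, against 0.321 and 0.695 CPM in control tumours.

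**Figure D4:**
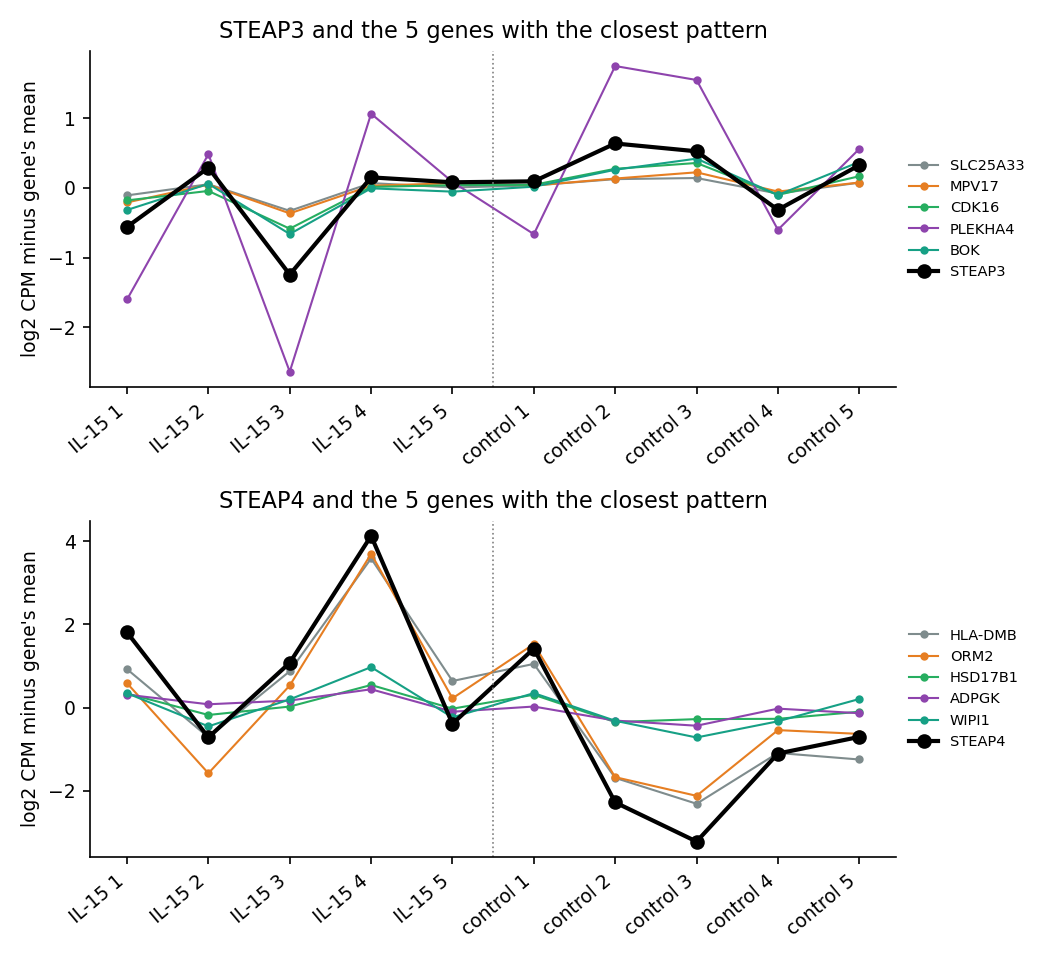
Log2 CPM minus the gene's mean over the 10 libraries for STEAP3 (top) and STEAP4 (bottom), in black, with the 5 genes of highest Pearson's r in colour, IL-15 tumours 1 to 5 left of the dotted line and control tumours 1 to 5 right of it. STEAP3 and its closest genes dip in IL-15 tumour 3 (STEAP3 at 7.11 CPM), and STEAP4, HLA-DMB and ORM2 peak in IL-15 tumour 4 (STEAP4 at 76.8 CPM).

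The 4 tested members were also set against 21 measures of each library. These were the summed levels of 10 cell type marker lists, the mean levels of 8 pathway lists and the first principal component of the libraries. The others were the scaling factor of edgeR's TMM method and a ratio of totals. That ratio is the library total implied by the deposited FPKM, counts and gene lengths, over the count total. None of the 84 relations passed a permutation test at an adjusted p under 0.05. The lowest adjusted p, 0.0748, was shared by STEAP4 with the first principal component, and by STEAP3 with the TMM factor and with the ratio of totals. STEAP4 had r = 0.64 with the androgen response list (permutation p = 0.0473, adjusted p = 0.397). It had r = 0.73 with the copper handling list (permutation p = 0.0145, adjusted p = 0.194) and -0.32 with the inflammatory list (permutation p = 0.370, adjusted p = 0.832). STEAP1 had r = 0.66 with the summed LNCaP markers (permutation p = 0.0371, adjusted p = 0.347).

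STEAP4 and the summed LNCaP markers had r = 0.83 (permutation p = 0.00378, adjusted p = 0.0794) and rho = 0.77 (permutation p = 0.0124, adjusted p = 0.131), with r = 0.60 after leaving out the 2 libraries farthest from the median marker sum. IL-15 tumour 4, highest in STEAP4, also had the highest marker sum, 14521 CPM, and control tumour 2, low in STEAP4, the lowest, 8174 CPM. Within IL-15 tumours r was 0.97 and within control tumours 0.75. KLK3 carried a large part of this sum, with means of 5584 CPM in IL-15 tumours and 4743 CPM in control tumours. The mean sums were 11109 CPM in IL-15 tumours and 10305 CPM in control tumours. The sum therefore leans on 1 gene and is not a plain measure of tumour cell content. The part of tumour cell content in the STEAP4 values was not tested.

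STEAP4 and the summed T cell markers had r = 0.48 (permutation p = 0.164) and rho = 0.49 (permutation p = 0.154), with r = 0.33 after leaving out the 2 libraries farthest from the median marker sum. IL-15 tumours 1, 3 and 4 had T cell marker sums of 49.3, 29.8 and 28.6 CPM and the highest STEAP4 levels of their group. Control tumour 3 had the next highest T cell marker sum, 21.2 CPM, and the lowest STEAP4 level of all, and control tumour 1 had the highest STEAP4 level of its group with a T cell marker sum of 6.47 CPM.

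STEAP3 and the TMM factor had r = -0.83 (permutation p = 0.00236) and rho = -0.83 (permutation p = 0.00475). Each STEAP3 CPM was divided by a library size that holds this factor, so part of a negative r is built in. The permutation tests take no account of that. With library size alone, where the factor does not enter the CPM, r also lay between -0.87 and -0.69. After leaving out the 2 libraries farthest from the median factor r was -0.46, but this also narrows the range of the factor. Whether the relation rests on those 2 cannot be told from it. With 1 library left out r lay between -0.87 and -0.69. Within IL-15 tumours r was -0.98 and within control tumours -0.41, with no test at 5 libraries each. IL-15 tumours 3 and 1, lowest in STEAP3, had the highest factors, 1.10 and 1.07. The first principal component, which held 34.9% of the variance of the 500 most variable genes, had r = -0.74 with STEAP3 (permutation p = 0.0108, adjusted p = 0.181) and r = 0.85 with STEAP4 (permutation p = 0.00237, adjusted p = 0.0748). STEAP4, at percentile 99.5 of the gene-wise spread, is probably 1 of those 500 genes and so helps to set the component. Its r and p with the component are therefore a description and not an independent test.

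**Figure D5:**
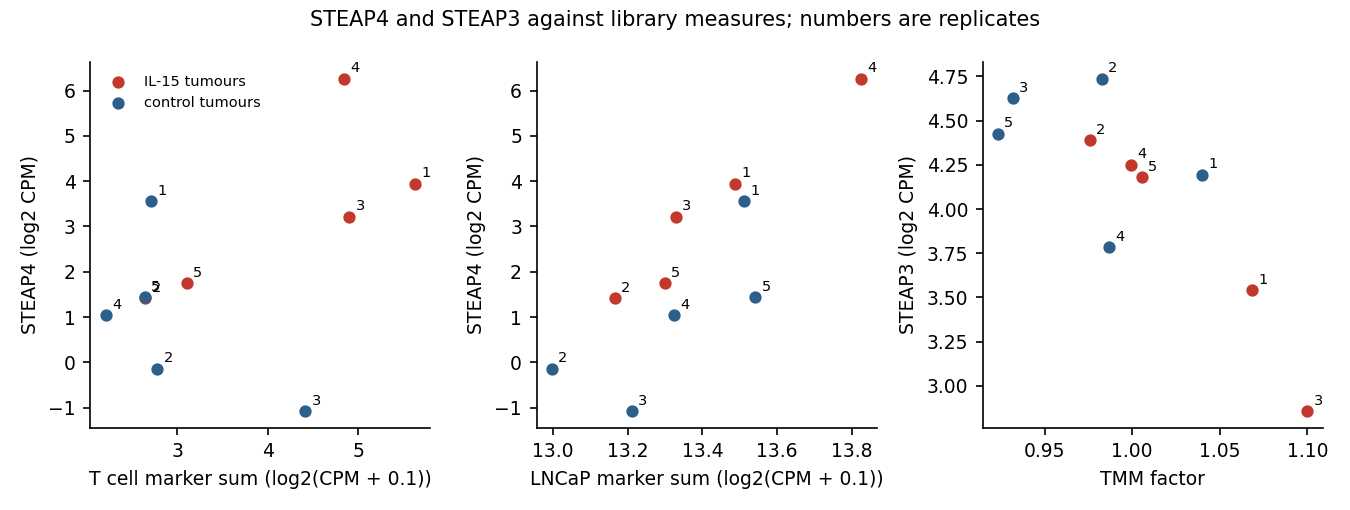
STEAP4 log2 CPM against the summed T cell markers (left) and the summed LNCaP luminal markers (middle), both as log2(CPM + 0.1), and STEAP3 log2 CPM against the TMM scaling factor (right), with 1 point per library marked by its replicate number, IL-15 tumours in red and control tumours in blue. Pearson's r is 0.48, 0.83 and -0.83 from left to right, and none passed the adjusted threshold.

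The iron genes that work with STEAP reductases showed no called difference. Of 30 genes of iron uptake and storage, 26 were tested, with 14 above and 12 below 0, 0 called and a median log2 fold change of 0.0032, against -0.0060 over all tested genes. The transferrin receptor TFRC measured 148 ± 26.4 CPM in IL-15 tumours and 164 ± 40.2 CPM in control tumours, and SLC11A2, the divalent metal transporter that takes up the reduced iron, 80.4 ± 8.22 and 71.9 ± 7.63 CPM in IL-15 and control tumours. FTH1, the ferritin heavy chain, had the smallest p of the list, at 638 ± 95.02 CPM in IL-15 tumours and 974 ± 222 CPM in control tumours (log2 fold change -0.61 ± 0.18, adjusted p = 0.758 by edgeR's test). The light chain gene FTL measured 370.4 ± 50.0 CPM in IL-15 tumours and 390 ± 60.3 CPM in control tumours. TF, which encodes transferrin, was under the count filter with 53 counts in all IL-15 tumours and 26 in all control tumours.

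CYBRD1, another ferric reductase of the plasma membrane, measured 0.661 ± 0.293 CPM in IL-15 tumours and 0.930 ± 0.632 CPM in control tumours. Of 23 other metalloreductases and NADPH or flavin partners, 18 were tested, with 6 above and 12 below 0, 0 called and a median of -0.17. CYB5R3, which encodes a cytochrome b5 reductase, measured 146 ± 19.5 CPM in IL-15 tumours and 196 ± 36.7 CPM in control tumours (log2 fold change -0.43 ± 0.15, adjusted p = 0.758 by edgeR's test). Of 23 copper handling genes 22 were tested, with 12 above and 10 below 0, 0 called and a median of 0.062.

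Genes of the programs that the members are known to answer to were likewise not called. Of 39 androgen response genes, 36 were tested, with 25 above and 11 below 0, 0 called and a median of 0.091. That median was -0.021 without IL-15 tumour 4 and 0.22 without IL-15 tumour 3. KLK3, which encodes prostate-specific antigen, measured 5584 ± 1336 CPM in IL-15 tumours and 4743 ± 1071 CPM in control tumours. FKBP5, another androgen-induced gene, measured 248 ± 169 CPM in IL-15 tumours and 249.5 ± 114 CPM in control tumours. Of 40 inflammatory STAT3, NF-kB and C/EBP genes, relevant to STEAP4, only 21 passed the count filter, with 5 above and 16 below 0, 0 called and a median of -0.23. That median was 0.045 without control tumour 3 and -0.054 with no low-count filter. CEBPB measured 36.4 ± 9.83 CPM in IL-15 tumours and 40.4 ± 7.71 CPM in control tumours, CEBPD 21.8 ± 4.67 and 29.3 ± 8.85 CPM in IL-15 and control tumours, and SOCS3 was under the filter with 27 and 29 counts in all IL-15 and all control tumours.

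CDKN1A, which encodes a cell cycle inhibitor, measured 83.6 ± 33.3 CPM in IL-15 tumours and 99.8 ± 30.7 CPM in control tumours. For STEAP3, all 14 exosome and secretion partners of STEAP3 were tested, with 7 above and 7 below 0, 0 called and a median of 0.025, and TSG101, an ESCRT subunit, had the smallest p at 51.3 ± 5.60 CPM in IL-15 tumours and 65.4 ± 7.07 CPM in control tumours (log2 fold change -0.35 ± 0.13, adjusted p = 0.758 by edgeR's test).

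STEAP1 and STEAP2 were finally set beside other prostate surface antigens used as therapy targets. Of 22 such genes 18 were tested, with 9 above and 9 below 0, 0 called and a median of -0.00022. FOLH1, which encodes prostate-specific membrane antigen, had the smallest p, at 480.1 ± 53.1 CPM in IL-15 tumours and 729 ± 146 CPM in control tumours (log2 fold change -0.60 ± 0.16, adjusted p = 0.758 by edgeR's test). The STEAP1 and STEAP2 values of 0.026 and 0.037 on the same scale were closer to 0, and whether they differed from the FOLH1 value was not tested.

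NK and cytotoxic markers summed to 3.99 to 39.2 CPM in IL-15 tumours and 1.16 to 16.1 CPM in control tumours. B cell markers summed to 5.95 to 15.9 CPM in IL-15 tumours and 5.58 to 12.9 CPM in control tumours, monocyte and macrophage markers to 3.61 to 6.36 CPM in IL-15 tumours and 3.14 to 6.84 CPM in control tumours, and neutrophil markers to 0.735 to 1.81 CPM in IL-15 tumours and 0.576 to 3.20 CPM in control tumours. Adipocyte markers, of interest for STEAP4, summed to 5.38 to 90.2 CPM in IL-15 tumours and 9.11 to 85.2 CPM in control tumours, with LPL carrying most of it. Fibroblast markers summed to 23.7 to 73.8 CPM in IL-15 tumours and 25.3 to 67.4 CPM in control tumours, and endothelial markers to 19.6 to 35.6 CPM in IL-15 tumours and 14.9 to 46.4 CPM in control tumours. Fibroblast markers had r = 0.73 with STEAP4 (permutation p = 0.0162, adjusted p = 0.194) and endothelial markers r = 0.67 with STEAP1 (permutation p = 0.0337, adjusted p = 0.347), neither passing the threshold. Only 3 of 9 fibroblast and 3 of 7 endothelial markers passed the count filter. All these sums are counts on human genes in tumours of a human cell line grown in mice. They are therefore not measures of mouse stroma, and which cells the counts came from was not tested.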

How the data were processed

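The authors deposited 1 table of raw read counts per gene and 1 of FPKM per gene, with human gene coordinates. Per the submitters' processing notes, reads were handled with tools that include GATK 4.1.1.0, DESeq2 1.20.0, featureCounts 1.5.0-p3, HISAT2 2.0.5 and fastp on build hg38; which tool did what, and the strand setting, is not stated. The deposited FPKM values, scaled per length and library by the authors, were used to compare levels between genes and, as log2(FPKM + 1) or log2(FPKM + 0.1) in limma, as alternatives to the count test. The authors' deposited table of group means was not used: its IL-15 means equal those of the 5 IL-15 libraries, but its control means differ from those of the 5 control libraries, so control values here stand for these 5 libraries only. Counts were tested with edgeR 4.0.16 (R 4.3.3; TMM scaling, genes kept by filterByExpr at a minimum count of 10, robust quasi-likelihood fit of IL-15 over control tumours, Benjamini-Hochberg over 16913 genes). CPM used TMM-scaled library sizes, and log2 CPM a prior count of 2. Permutation tests used 100000 resamples, two-sided. DESeq2 1.42.0, limma 3.58.1, other scalings and filters, the replicate block and each library left out were alternatives.

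The interval of the STEAP1B count ratio and the floors of counts cover counting error only. The intervals of the edgeR fold changes also include the spread between libraries. No 2 libraries agreed within sampling noise: over 45 pairs the chi-square per degree of freedom was 20.6 to 92.5. Tested on simulated data from these libraries, the fit recovered 42.4% of genes changed 2-fold and 89.2% of those changed 4-fold, with 9 false calls among 16573 genes. The changed genes were drawn at random, and their noise was independent between genes. These rates are therefore averages over genes. They are not rates for a gene as variable as STEAP4, at percentile 99.5 of the gene-wise spread. The family members and gene lists were chosen with earlier results of these data known. Named genes were the members, tested protein-coding neighbours within 1 Mb, the 5 genes of highest r with each member, up to 4 genes of smallest p per list and 14 genes by name, of which some, with 1 list, are not reported here. Genes of the Y chromosome and XIST are not reported. No human reference sequence was used here, so none is shown.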

Additional observations from a re-analysis of the deposited data

Results flagged for a closer look

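In a group of 5 tumours a library was singled out when its gap to the nearest other, over the range of the group, exceeded Dixon's 95% critical value of 0.71. Of 38 groups of values tested, 3 were singled out, and chance singles out about 1 in 20, or 5%, where values are normal. The rule was applied to CPM, which need not be normal. STEAP4 was highest in IL-15 tumour 4 at 76.8 CPM, with a gap of 0.828 of the range of its group. STEAP4 was also singled out in control tumour 1 at 11.7 CPM, with a gap of 0.803 of the range. The rule was not applied to log2 CPM, where these libraries stand out less. On that scale the highest, next and lowest STEAP4 values were 6.27, 3.95 and 1.42 in IL-15 tumours. In control tumours they were 3.56, 1.44 and -1.08. CDKN1A, which encodes a cell cycle inhibitor, was highest in a control tumour at 153 CPM, with a gap of 0.736 of the range.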

How the results depend on the processing

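No call on a STEAP gene depended on a setting: STEAP1, STEAP2, STEAP3 and STEAP4 kept adjusted p-values above the threshold under each scaling, filter, tool and unit tried and with each library left out. The number of genes called over the whole table was 0 in the main setting, with 1092 at an unadjusted p under 0.05, 1 with no low-count filter and 7 with DESeq2. Leaving out a library gave log2 fold changes of -0.058 to 0.12 for STEAP1, -0.045 to 0.17 for STEAP2, -0.57 to -0.26 for STEAP3 and 1.12 to 3.92 for STEAP4. The median of the iron list was 0.085 with library size alone, where the median of all genes was 0.077, and -0.083 to 0.028 with a library left out. In the same way the medians lay between -0.020 and 0.080 for the copper list, -0.050 and 0.11 for the exosome list, -0.057 and 0.093 for the prostate surface list, -0.021 and 0.22 for the androgen list and -0.37 and 0.045 for the inflammatory list. With a library left out, Pearson's r lay between -0.21 and 0.67 for STEAP1 and STEAP2, between -0.48 and 0.29 for STEAP1 and STEAP3 and between -0.060 and 0.33 for STEAP2 and STEAP4. Among relations with library measures, an analysis chosen after seeing the data, STEAP3 with the TMM factor and with the ratio of totals reached an adjusted p of 0.0489 without control tumour 4, and STEAP4 with the first principal component 0.0426 without IL-15 tumour 4. The component was not recomputed without that library, and STEAP4 probably helped to set it. STEAP3 CPM was scaled by the TMM factor, so the relation of STEAP3 with that factor is partly built in. Replicate numbers did not pair the tumours (r of same-numbered deviations -0.22 to 0.26), and with the replicate block 0 genes were called and the log2 fold changes were 0.044 for STEAP1, 0.070 for STEAP2, -0.50 for STEAP3 and 2.31 for STEAP4. The causes of these shifts were not tested. Counts limit STEAP1B, and STEAP4 in control tumours.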
